A study of Mus musculus with 8 samples.

Results

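The 5 genes Ephx1, Basp1, Lysmd2, Crybg1 and Dipk2a had higher array signals in mouse double positive thymocytes on the Vbeta5 arrays than on the other arrays, and none of them is a classical gene of T cell receptor (TCR) signalling. They were chosen by measured values, namely a large rise on the Vbeta5 arrays against the overnight control arrays, the Valpha2 arrays or both. The 5 are among 8251 genes named on the array, and the platform annotation maps 6 of 12422 probe sets to their symbols alone, 2 to Basp1 and 1 to each of the others. Total RNA was measured on 8 arrays in 4 groups of 2. The groups were a control, an overnight control, Valpha2 and Vbeta5, and the last names are those of variable segments of the TCR alpha and beta chains, while the series title speaks of antibodies to the TCR. The labels do not spell out the treatment of each group, and whether the control groups got an antibody is not stated. In each group 1 array is numbered 1 and the other 2. The labels used here name no strain, genotype, age, antibody clone or dose, and no time beyond the word overnight. Nothing in the labels ties the arrays to separate animals or cultures, so each p-value reflects the spread among these samples alone, and that spread may be technical.

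Double positive thymocytes express CD4 and CD8 together and test their newly rearranged TCR on peptide and MHC in the thymic cortex. A TCR signal at this stage induces immediate early transcription factors, ends recombinase expression and starts the maturation programme. The members sit outside that core. Ephx1 encodes microsomal epoxide hydrolase, an enzyme of the endoplasmic reticulum that turns reactive epoxides into diols. Basp1 encodes a myristoylated protein at the inner face of the plasma membrane that binds calmodulin and acidic lipids, and it can act as a corepressor with Wt1 in the nucleus. Lysmd2 encodes a small protein with a LysM domain, a fold that binds glycans in other proteins. Crybg1, formerly Aim1, encodes a large protein of the beta gamma crystallin family that was first described as absent in melanoma. Dipk2a encodes a secretory pathway protein with a kinase-like fold.

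The genes lie apart in the genome. In GRCm38.p6 they are at chr1:180989556-181017569 (Ephx1), chr15:25363277-25413764 (Basp1), chr9:75625121-75637773 (Lysmd2), chr10:43950307-44148828 (Crybg1) and chr9:94517864-94538081 (Dipk2a). The build applies to these gene models and to the promoter sequences, not to the signal table, whose probe sets carry no coordinates. The RefSeq promoter table held starts for 4 of the 5 members, with 3 starts for Crybg1, and none was matched for Lysmd2. The 250 bases before the start are shown because the members rose on the same arrays. They were searched for sites of TCR-induced factors and also for the antioxidant response element core. Capitals mark a match, on either strand, to 1 of 5 motifs: Egr GCGNGGGCG, NFAT core GGAAA, AP-1 TGANTCA, cyclic AMP response element TGACGTCA, and the antioxidant response element core TGACNNNGC. Each line runs 5′ to 3′ along the gene. The window at the middle Crybg1 start, chr10:44022276-44022525, was searched too but is not printed.
Ephx1, chr1:181017570-181017819, minus strand: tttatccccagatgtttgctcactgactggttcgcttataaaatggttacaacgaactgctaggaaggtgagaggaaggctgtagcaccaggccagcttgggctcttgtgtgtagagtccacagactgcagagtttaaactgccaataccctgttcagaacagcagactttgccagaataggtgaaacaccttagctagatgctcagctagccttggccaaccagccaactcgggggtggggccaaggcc
Basp1, chr15:25413765-25414014, minus strand: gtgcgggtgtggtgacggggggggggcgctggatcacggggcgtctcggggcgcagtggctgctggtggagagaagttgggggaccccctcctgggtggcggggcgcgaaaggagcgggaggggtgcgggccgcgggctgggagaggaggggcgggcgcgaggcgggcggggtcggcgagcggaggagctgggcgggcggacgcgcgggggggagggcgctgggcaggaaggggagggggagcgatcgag
Crybg1 outer start, chr10:44148829-44149078, minus strand: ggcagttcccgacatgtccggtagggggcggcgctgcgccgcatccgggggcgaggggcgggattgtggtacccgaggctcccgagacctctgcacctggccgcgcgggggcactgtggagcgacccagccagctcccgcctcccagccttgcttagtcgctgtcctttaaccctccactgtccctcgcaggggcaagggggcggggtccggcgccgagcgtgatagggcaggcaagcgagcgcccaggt
Crybg1 inner start, chr10:44004847-44005096, minus strand: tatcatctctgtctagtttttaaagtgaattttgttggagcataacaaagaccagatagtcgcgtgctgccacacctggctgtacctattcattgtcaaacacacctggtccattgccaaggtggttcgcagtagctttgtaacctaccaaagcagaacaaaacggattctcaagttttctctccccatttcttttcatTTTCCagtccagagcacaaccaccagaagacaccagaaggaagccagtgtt
Dipk2a, chr9:94538082-94538331, minus strand: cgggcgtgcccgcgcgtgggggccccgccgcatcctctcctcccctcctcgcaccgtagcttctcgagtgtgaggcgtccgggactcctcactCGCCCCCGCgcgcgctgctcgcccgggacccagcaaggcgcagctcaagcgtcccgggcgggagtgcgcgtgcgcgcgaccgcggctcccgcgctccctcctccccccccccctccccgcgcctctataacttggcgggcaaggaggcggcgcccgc

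Of the 6 promoter windows only 2 held a match. The Dipk2a window had 1 Egr match on the reverse strand, with its first base 157 bases before the start, a motif found in 4.7% of all 32851 promoter windows of this length. The inner Crybg1 window had 1 NFAT core match, 51 bases before the start, where 55.6% of all windows had one. No window held the AP-1 motif (6.75% of all windows), the cyclic AMP response element (1.55%) or the antioxidant response element core (10.2%). The GC content of the windows ranged from 39.2% at the middle Crybg1 start to 78.8% at Basp1, against a median of 52.4% over all windows. A match is a description of letters in this window, and the array does not tell which Crybg1 start was used.

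The arrays had median signals from 73.65 to 110.25. For RNA quality, Gapdh control probes at the 3' end were compared with those at the 5' end. Their log2 ratio reached 1.72 on Valpha2 array 1, with 0.953 for overnight control array 1 and 0.484 for Vbeta5 array 1, and was -0.282 to -0.0911 elsewhere. The summed signal of 11 measured double positive markers, among them Rag1, Cd8a and Cd4, lay between 52880 and 74170 on the 6 arrays without Vbeta5 and at 29070 and 41460 on the Vbeta5 arrays. The fall was not shared by all 11. Against the overnight control their median log2 difference was -1.26, but Cd3e, Cd3g and Cd3d differed by 0.29, 0.52 and 0.01. By limma 2 of the 11 were called lower and 0 higher, where 0.266% and 0.35% of all tested probe sets were. Fewer cells of a type and less RNA per cell cannot be told apart in such bulk samples. Markers of 8 other cell types and of mature T cells were also summed for each array. The dendritic cell and MHC class II list (8 of 8 genes on the array) summed to 1130 and 1223 with Vbeta5, 625 to 687.5 with Valpha2, 528.1 to 1355 in the overnight control and 614.1 to 641.2 in the control. Of its 8 genes, 5 of them tested, 2 had both Vbeta5 arrays above the other 6, where 6.1% of all tested probe sets did. H2-Ab1 read 65.8 to 88.0 with Vbeta5 and at most 38.5 elsewhere, and H2-Eb1 222.4 to 233.0 and at most 178.3. H2-Aa, of the same MHC class II family, read 10 to 24.6 over the 8 arrays. The mature single positive list (6 of 8 genes) summed to 586.4 to 711.1 with Vbeta5 and 392.8 to 594.8 on the other arrays. The B cell list (7 of 8 genes) summed lower with Vbeta5 (2743 to 3392 against 4045 to 5490). Most of that sum was Ighm (2207 to 2920.4 against 3483.1 to 4490). Cd79b and Blnk also lay below the other arrays, while Pax5, Ms4a1, Cd79a and Cd22 overlapped them. The other 6 lists overlapped between Vbeta5 and the overnight control. With Vbeta5 the macrophage and monocyte list (1024 to 1091) lay above the control (544.8 to 643.4) and Valpha2 (607.5 to 882.6). The granulocyte, thymic epithelium and natural killer lists lay above the control but overlapped Valpha2. In the last list Gzmb read 55.3 to 70.5 with Vbeta5 and at most 39.7 elsewhere. The part of these cell types in the members' signals was not tested.

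Ephx1 was dim on most arrays without Vbeta5 and bright with it. Its signal was 142.8 and 26.0 on control arrays 1 and 2, 35.6 and 44.4 in the overnight control, 62.8 and 143.3 with Valpha2, and 899.5 and 865.9 with Vbeta5. The 2 Vbeta5 arrays were thus alike and more than 6 times as bright as any other array, while the control overlapped both the overnight control and Valpha2, and Valpha2 lay above the overnight control. The group means were 84.4 ± 82.6 (SD, n = 2), 40.0 ± 6.22, 103 ± 56.9 and 882.7 ± 23.8 in the same order. On the log2(signal + 17) scale, where 17 is the 20th percentile of positive signals, Vbeta5 exceeded the overnight control by 3.98 ± 0.57 (SE), Valpha2 by 2.99 ± 0.57 and the control by 3.44 ± 0.57. The size depends on how dim signals are treated: the first difference was 4.21 with an offset of 8.5 and 4.47 with a floor, and the ratio of the plain mean signals was 22.1. The spread in the control was wide, with a gap of 1.89 between its 2 arrays that was larger than that of 99.6% of the tested probe sets.

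Basp1 was already bright in every group and rose further. The first probe set, with the suffix _s_at, read 644.0 and 906.7 in the control, 645.0 and 1044.1 in the overnight control, 682.3 and 1553.3 with Valpha2, and 5840.6 and 4897.9 with Vbeta5. All 6 arrays without Vbeta5 overlapped in one range, and both Vbeta5 arrays lay above it. The difference of Vbeta5 was 2.68 ± 0.37 (SE) from the overnight control, 2.36 ± 0.37 from Valpha2 and 2.78 ± 0.37 from the control. The second probe set, with the suffix _r_at, read 1092.1 and 900.0, 1623.9 and 894.9, 890.7 and 1414.0, and 2913.8 and 2198.0 in the same order of groups. Its Vbeta5 arrays also stood above the other 6, but by less: 1.06 ± 0.32 (SE) over the overnight control, 1.16 ± 0.32 over Valpha2 and 1.34 ± 0.32 over the control. By the array maker's convention _s_at marks probes that may match more than 1 transcript and _r_at probes picked under relaxed rules. Levels of the 2 probe sets are not set against each other here.

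Dipk2a overlapped between the overnight control and both other groups without Vbeta5. Its signal was 588.1 and 532.8 in the control, 560.6 and 724.2 in the overnight control, 590.5 and 851.7 with Valpha2, and 1846.5 and 2357.9 with Vbeta5. The lower Vbeta5 array was more than 2 times the highest other array. Vbeta5 exceeded the overnight control by 1.68 ± 0.26 (SE), Valpha2 by 1.53 ± 0.26 and the control by 1.87 ± 0.26, so the size hardly depended on the group it was set against.

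Lysmd2 and Crybg1 differed from these 3 genes in their baseline. Lysmd2 read 134.6 and 148.2 in the control, 18.9 and 69.7 in the overnight control, 84.8 and 167.1 with Valpha2, and 315.5 and 363.8 with Vbeta5. The overnight control was the lowest group, and control and Valpha2 overlapped. Its Vbeta5 difference was 2.67 ± 0.47 (SE) from the overnight control but 1.38 ± 0.47 from Valpha2 and 1.17 ± 0.47 from the control. Crybg1 read 454.6 and 414.6 in the control, 187.1 and 149.1 in the overnight control, 219.9 and 193.1 with Valpha2, and 628.3 and 847.3 with Vbeta5. No 2 groups of Crybg1 overlapped, and the order was overnight control, Valpha2, control, Vbeta5. Vbeta5 exceeded the overnight control by 2.02 ± 0.27 (SE) and Valpha2 by 1.74 ± 0.27, and the control by only 0.73 ± 0.27.

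**Figure D1:**
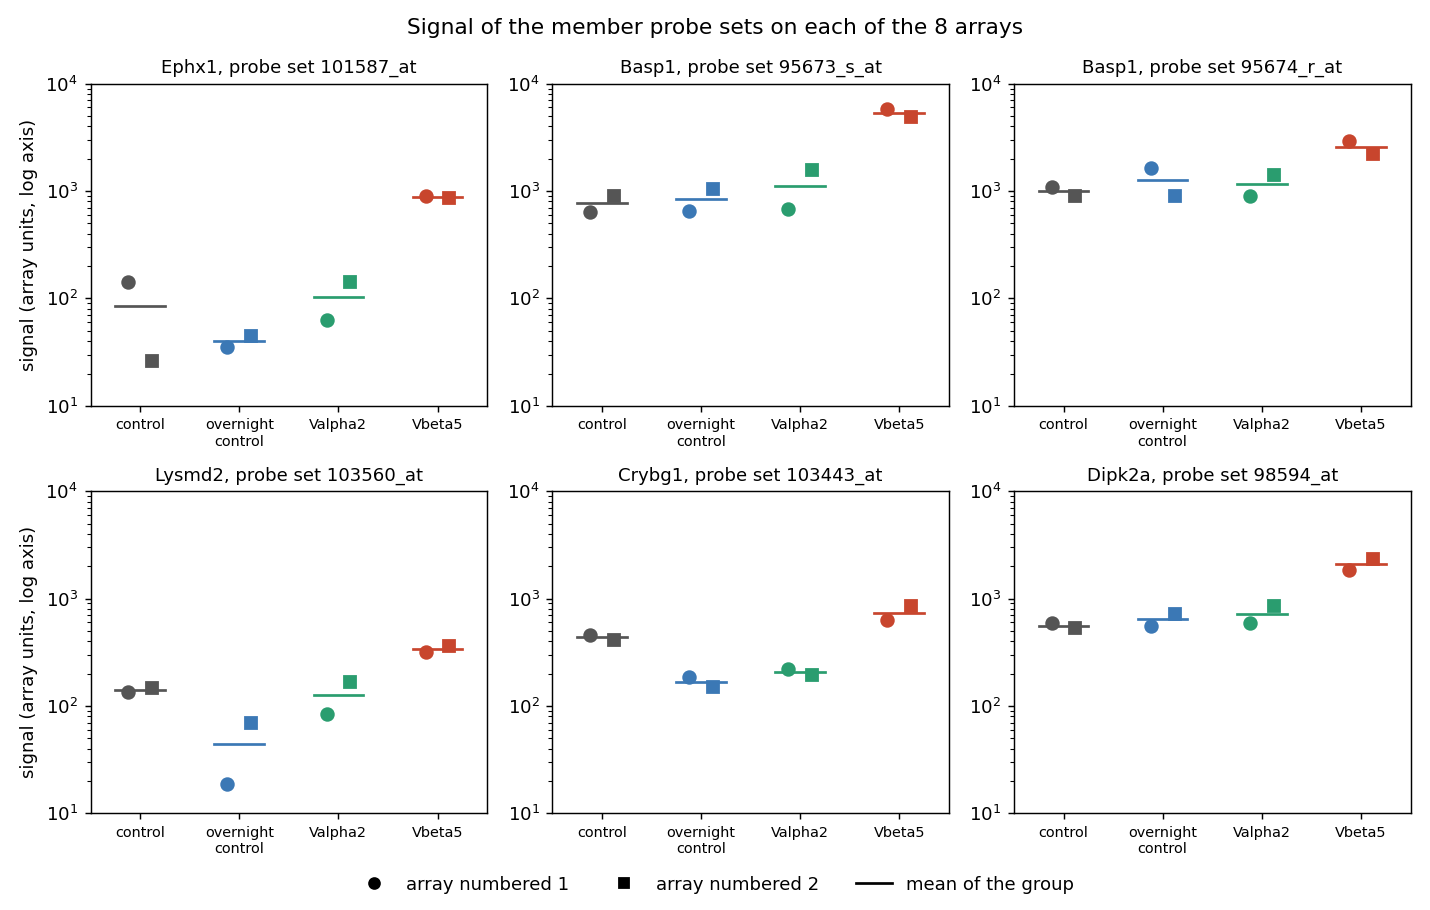
Signal of each member probe set (vertical axis, array units, log scale) in the 4 groups; circles are arrays numbered 1, squares arrays numbered 2 and lines the group means (n = 2). Both Vbeta5 arrays lie above the 6 others in all 6 panels, and Crybg1 is lower in the overnight control (187.1 and 149.1) and with Valpha2 (219.9 and 193.1) than in the control (454.6 and 414.6).

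In all 6 probe sets both Vbeta5 arrays lay above the 6 other arrays, as did 6.1% of the 8281 probe sets tested. This count follows from the choice of members and supports nothing. The values that entered the choice were as follows, and the calls and p-values among them also follow from it and support nothing. Against the overnight control 5 of the 6 probe sets were called higher, with a limma adjusted p from 0.0143 for Basp1 (_s_at) and Crybg1 to 0.0355 for Lysmd2, where 0.35% of the probe sets were called higher. The second Basp1 probe set lay outside the threshold of 0.05 with an adjusted p of 0.268. Against Valpha2 3 of 6 were called higher in the fit on all arrays, 1 without Valpha2 array 2, and 0 without either control array, Valpha2 array 1 or either Vbeta5 array. The limma adjusted p was 0.0407 for Basp1 (_s_at) and Crybg1 and 0.0454 for Dipk2a, where 0.0966% of the probe sets were called higher. Ephx1 lay just outside with 0.0755, and Basp1 (_r_at) and Lysmd2 lay far outside with 0.256 and 0.396. Leaving out 1 array lowered the 5 calls against the overnight control to 0 without Vbeta5 array 2, to 1 without Vbeta5 array 1 and to 1 without overnight control array 1. All 6 probe sets passed the filter on dim probe sets, and all 6 would also have passed it on the 6 arrays without Vbeta5. Without the Vbeta5 arrays Ephx1 stood at the 45.4th percentile of mean log2 signal and Lysmd2 at the 51.8th, against the 72.1st to 93.7th for the other 4 probe sets.

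The comparison of the overnight control with the control, whose means use neither the Valpha2 nor the Vbeta5 arrays, asks whether the members differed between the controls. The SE and p come from the fit on all 8 arrays; with only the 4 arrays compared the limma adjusted p was 0.187 in place of 0.101 for Crybg1 and 0.545 in place of 0.333 for Lysmd2. By limma 0 of 6 member probe sets passed and 2 had an unadjusted p under 0.05. Of the 8281 tested probe sets 0.181% passed (15, of which 14 were lower) and 745 had an unadjusted p under 0.05. Crybg1 differed by -1.29 ± 0.27 (SE), with both overnight arrays under both control arrays (limma unadjusted p = 0.000723, adjusted p = 0.101). Lysmd2 differed by -1.50 ± 0.47, likewise without overlap (limma adjusted p = 0.333). Such a separation downwards was found in 16.3% of the tested probe sets. Neither difference passed over all probe sets in this fit. Without overnight control array 2 Lysmd2 passed (-2.14, limma adjusted p = 0.0499), and without the 3 arrays of high Gapdh ratio Crybg1 passed (-1.44, limma adjusted p = 0.0335). Both unadjusted 95% intervals lay below 0, at -1.90 to -0.69 for Crybg1 and -2.55 to -0.46 for Lysmd2. The overnight control and Valpha2 arrays also entered the choice of the members, so these tests are not independent of it.

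The remaining members overlapped between the 2 controls. Ephx1 differed by -0.54 ± 0.57 (SE). The 95% intervals of these 4 probe sets spanned 0, at -1.82 to 0.73 for Ephx1, -0.73 to 0.93 and -0.44 to 1.00 for the Basp1 probe sets, and -0.39 to 0.76 for Dipk2a. Their limma adjusted p lay between 0.784 and 0.948. The interval of Ephx1 was the widest of these 4 and that of Dipk2a the narrowest.

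The comparison of Valpha2 with the control gave, by limma, 0 of 6 member probe sets past the threshold and 1 with an unadjusted p under 0.05. Of the 8281 tested probe sets 0.399% passed and 618 had an unadjusted p under 0.05. Crybg1 again differed downwards, by -1.02 ± 0.27 (SE), with both Valpha2 arrays under both control arrays (limma adjusted p = 0.239), a separation seen in 16.7% of the tested probe sets. The other 5 differed by -0.21 to 0.45, with limma adjusted p from 0.856 to 0.963. Dipk2a was separated upwards by a small margin, with 590.5 on the lower Valpha2 array against 588.1 on the higher control array, and a difference of 0.33 ± 0.26.

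Setting Valpha2 against the overnight control asks whether the members differed in the group named after the alpha chain segment. By limma 0 of 6 member probe sets passed and 0% of all tested probe sets did, with 1 of 6 and 134 of 8281 at an unadjusted p under 0.05. Lysmd2 had the largest member difference, 1.30 ± 0.47 (SE), and Ephx1 followed with 0.99 ± 0.57, each with both Valpha2 arrays above both overnight arrays and a limma adjusted p of 1. Crybg1 (0.28 ± 0.27) was separated too, as were 10.5% of all tested probe sets in that direction. Dipk2a differed by 0.15 ± 0.26, and the Basp1 probe sets by 0.32 ± 0.37 and -0.10 ± 0.32. The unadjusted 95% interval of Lysmd2 lay above 0, at 0.25 to 2.34, and that of Ephx1 spanned 0, at -0.28 to 2.26. These arrays thus allow rises up to the upper ends with Valpha2 for these dim genes, while the interval of Dipk2a ended at 0.72. These comparisons share their control, overnight control and Valpha2 arrays and are not independent.

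**Figure D2:**
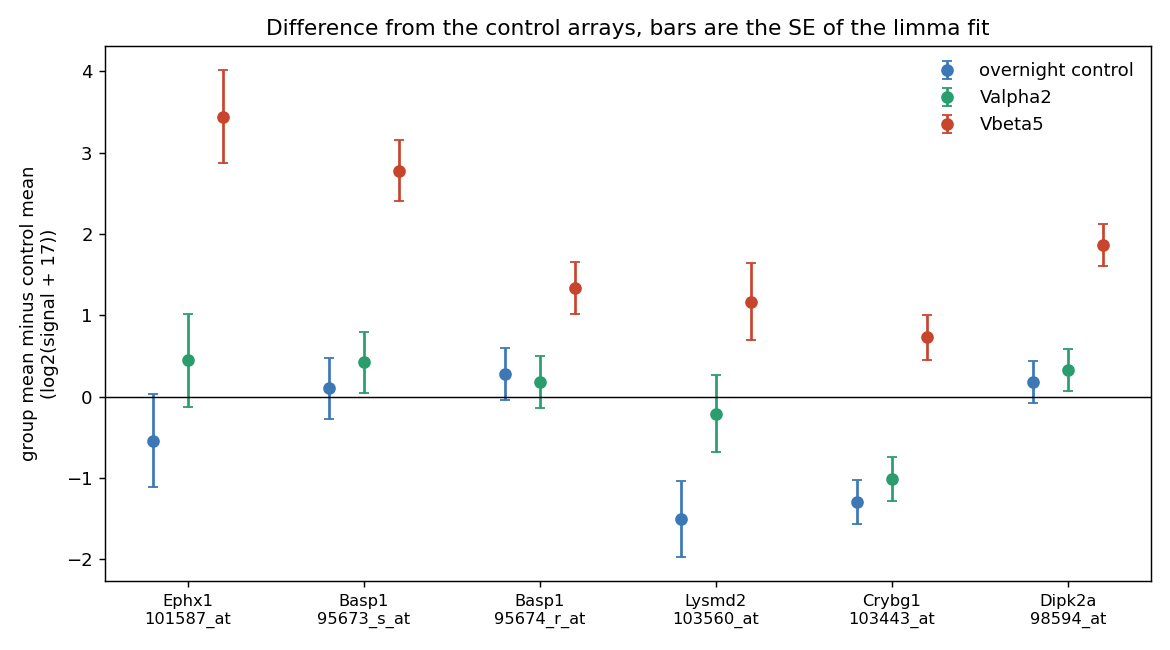
Difference of the group mean from the control mean on the log2(signal + 17) scale for each member probe set; points are differences over 2 arrays a group and bars the SE of the limma fit. The Vbeta5 point is the highest for every probe set, from 0.73 for Crybg1 to 3.44 for Ephx1, and the overnight control and Valpha2 points of Crybg1 lie at -1.29 and -1.02.

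Arrays of Valpha2 differed between the 2 numbers in several members. Valpha2 array 2 exceeded array 1 in Ephx1, both Basp1 probe sets, Lysmd2 and Dipk2a, with log2 gaps of 1.01, 1.17, 0.66, 0.85 and 0.52 against a median gap of 0.337 over all tested probe sets. Crybg1 was the exception, with 219.9 on array 1 and 193.1 on array 2. Valpha2 array 1 also had the largest Gapdh ratio of 3' over 5' probes, and the part of RNA quality in this gap was not tested. With arrays numbered 2 alone, where no ratio was high, Vbeta5 exceeded the overnight control by 3.85 for Ephx1, 2.21 and 1.28 for the Basp1 probe sets, 2.13 for Lysmd2, 2.38 for Crybg1 and 1.68 for Dipk2a. With arrays numbered 1 alone the same differences were 4.12, 3.15, 0.84, 3.21, 1.66 and 1.69. Every member was higher with Vbeta5 under both numbers, which follows from the choice of members and supports nothing.

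Each member was set beside the 3 named genes whose centred log2 profile over the 8 arrays differed least from its own, by the root mean square difference among the tested probe sets. This is a description over 8 arrays in which the Vbeta5 rise dominates. Ephx1 lay nearest to Pdcd1, the gene of the inhibitory receptor PD-1 (0.466), the calcium-dependent factor Nfatc1 (0.532) and the zinc finger factor Egr2 (0.702), against a median of 1.67 over all named probe sets. Basp1 lay nearest to the adaptor Sh3bp2 (0.36), the costimulatory receptor Icos (0.363) and the Egr corepressor Nab2 (0.374), with a median of 1.24. Dipk2a had the closest match of all, the immediate early gene Ier2 (0.115), followed by the phosphatase Dusp2 (0.193) and Sh3bp2 (0.197), with a median of 0.836. Ier2 read 403.0 and 455.6 in the control, 417.7 and 533.0 in the overnight control, 461.9 and 776.0 with Valpha2, and 1459.3 and 1877.5 with Vbeta5.

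Lysmd2 and Crybg1 had different neighbours. Lysmd2 lay nearest to Cd5 (0.341), a surface receptor that dampens TCR signals, the AP-1 factor Junb (0.414, probe set suffix _i_at) and Plekho1 (0.454). A second, brighter Junb probe set (_r_at) had means of 208 in the control and 253 in the overnight control, where the first had 182 and 97.4. Cd5 read 2651.9 and 2802.7 in the control but 684.9 and 1327.0 in the overnight control and 869.7 and 2239.5 with Valpha2, before 4762.4 and 5331.9 with Vbeta5. Crybg1 lay nearest to the tropomyosin gene Tpm4 (0.228), the proton-sensing receptor Gpr65 (0.286) and Rgs10 (0.319), a regulator of G protein signalling. Tpm4 read 1012.8 and 950.4 in the control, 457.6 and 305.1 in the overnight control, 437.6 and 613.2 with Valpha2 and 1410.8 and 2533.8 with Vbeta5. No member was among the 3 nearest of another member. The closest pair of members was Basp1 and Dipk2a (0.488) and the farthest Ephx1 and Crybg1 (1.15), while the 2 probe sets of Basp1 differed by 0.775.

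**Figure D3:**
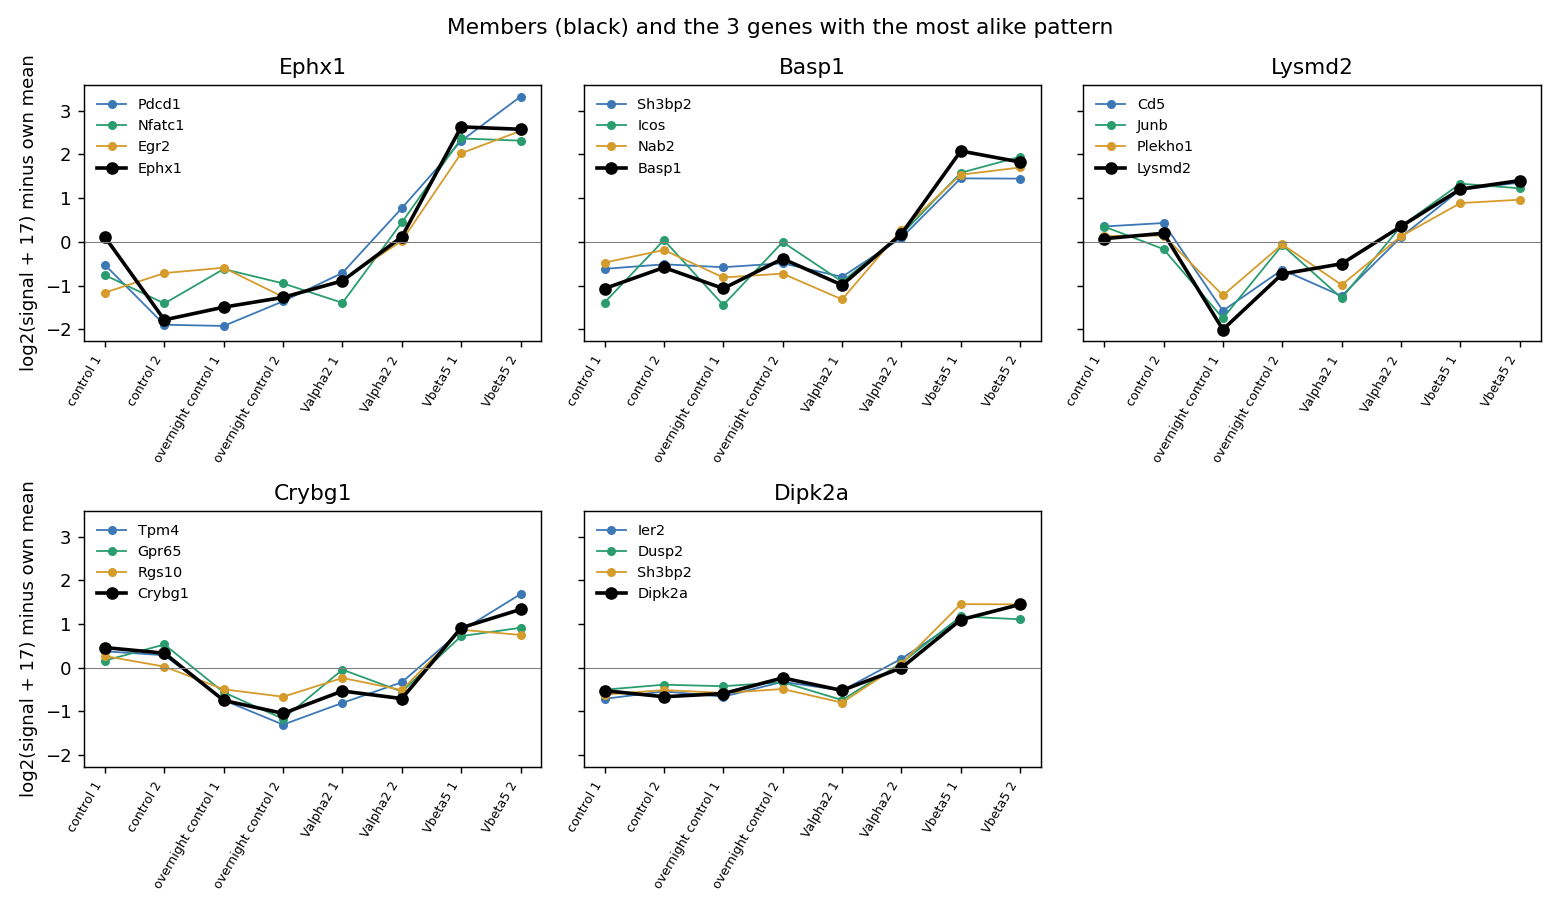
Centred log2(signal + 17) of each member (black) and its 3 most alike genes (colours) on the 8 arrays, in group order; lines only join the points of 1 gene. Dipk2a and Ier2 differ by a root mean square of 0.115, and Lysmd2 and Crybg1 themselves lie above 0 on both control arrays and below 0 on both overnight control arrays.

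Among the tested genes of the family and partner lists drawn up for the members none was called. Of 43 genes of xenobiotic and redox metabolism listed for Ephx1, 24 were tested, among them regulators such as Nfe2l2 and Arnt. By limma 0 of the 24 rose and 0 fell with Vbeta5 against the overnight control (1 at an unadjusted p under 0.05), where 0.35% and 0.266% of all probe sets did. Their median difference was 0.00251, against -0.0094 over all tested probe sets. The brightest were Cyb5a, an electron carrier of the endoplasmic reticulum, at 2076 ± 326 (SD, n = 2) with Vbeta5 and 3935 ± 382 in the overnight control (limma adjusted p = 0.261), and the leukotriene enzyme Lta4h at 3431 ± 628 and 2555 ± 421 (adjusted p = 0.705). Of 26 membrane-associated and partner proteins listed for Basp1, 19 were tested, and by limma 0 rose and 0 fell (7 at an unadjusted p under 0.05), and the median was 0.043. The share of all tested probe sets at that unadjusted p was not counted for Vbeta5. Such counts therefore stand without a background, here and for the other families. The brightest were the protein kinase C gene Prkcb, at 1776 ± 244 with Vbeta5 and 3165 ± 86.3 in the overnight control (limma adjusted p = 0.182), and Marcks, at 1011 ± 228 and 1872 ± 188 (adjusted p = 0.3). Marcks encodes a myristoylated calmodulin-binding protein with a role like that of Basp1. Its mean with Vbeta5 was below the overnight control, where that of Basp1 was above, without passing. From the control Marcks differed by only -0.16 ± 0.29 (SE) with Vbeta5. Its relative Marcksl1 differed from the overnight control in the other direction, by 1.07 ± 0.26, also without passing.

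For the other families few genes were measured. Of 16 beta gamma crystallin genes 3 were tested, the brightest being Crybb2 (limma adjusted p = 0.99). Lysmd1, the 1 tested gene of 8 with a LysM or TLDc domain, read 84.05 ± 13.6 (SD, n = 2) with Vbeta5 and 85.85 ± 24.4 in the overnight control. Of 13 secretory pathway kinase genes 3 were tested; Dipk1b, of the same divergent kinase family as Dipk2a, read 227 ± 53.9 and 172.1 ± 31.0 (adjusted p = 0.917). In these 3 families 0 of 7 tested genes passed by limma with Vbeta5 against the overnight control, and 0 had an unadjusted p under 0.05.

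**Figure D4:**
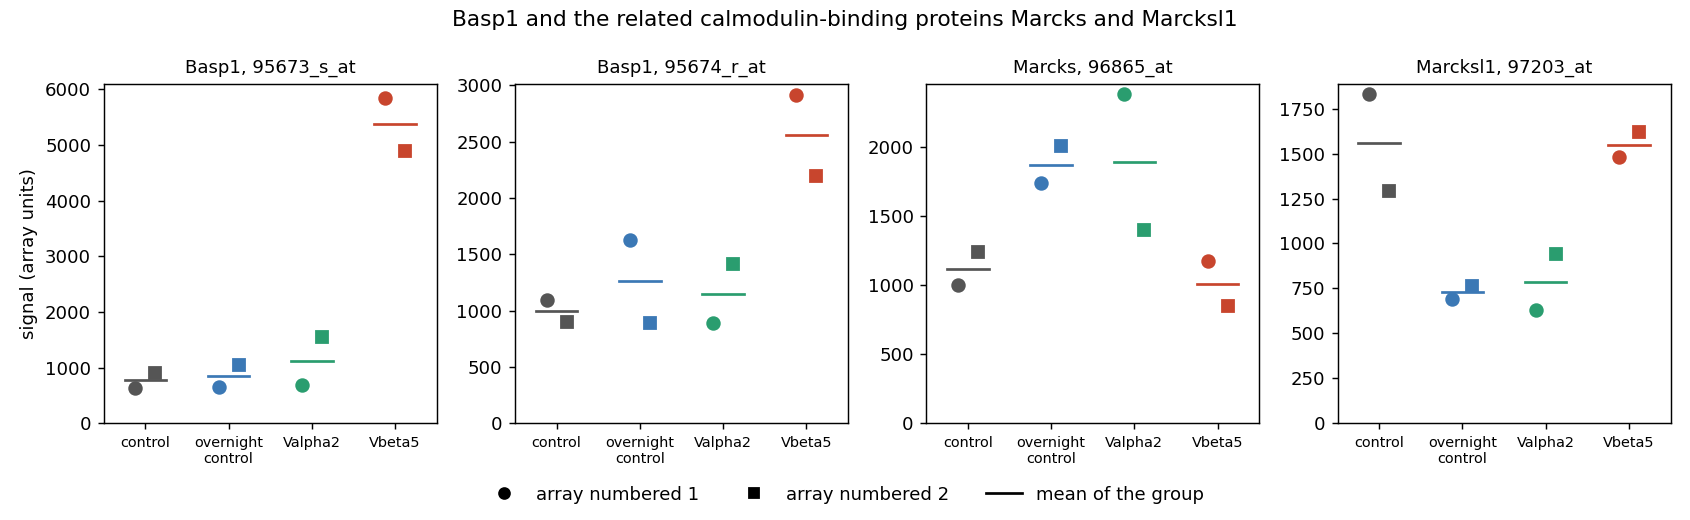
Signal (array units, linear axes that start at 0 and differ between panels) of the 2 Basp1 probe sets, Marcks and Marcksl1 in the 4 groups; circles are arrays numbered 1, squares arrays numbered 2, and lines the group means. Marcks had group means of 1872 and 1011 in the overnight control and with Vbeta5, and Marcksl1 728.6 and 1548.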

How the data were processed

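The authors deposited 1 table of normalized intensity values, per the labels, for 12488 probe sets on 8 single-colour arrays. The labels used here do not name the software or the scaling target. The 2% trimmed mean was 250.14 to 250.16 on every array. After 66 control probe sets were left out, log2(signal + 17) was taken with no further normalization; between 12.24% and 24.72% of each array's signals were below 17. The dimmest 33.3% by mean were left out and 8281 were tested across all probe sets with limma 3.58.1 (R 4.3.3). The model held a mean for each of the 4 groups and a variance trend, with 4 residual and 6.328 prior degrees of freedom. All adjusted p-values are two-sided and Benjamini-Hochberg adjusted with a threshold of 0.05. The code was tested on simulated data. An exact permutation of 2 against 2 cannot go below p = 0.333, so none was run.

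Symbols came from the platform annotation, updated by gene identifier to RefSeq (GRCm38.p6), which also gave gene coordinates and promoters; 10833 probe sets had 1 symbol, 396 several and 1193 none. The members and lists were chosen with earlier results of these data known. Where a list gene had several tested probe sets the brightest was used. The naming rule takes all member probe sets, the 3 most alike genes of each member, and of each list the genes that passed or else the brightest 1 or 2. The number of arrays limits the precision, and detection calls were not used here.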

Additional observations from a re-analysis of the deposited data

How the results depend on the processing

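With 2 arrays a group, counts of calls moved with the settings. Overnight control against control had 15 calls; it had 0 with no variance trend, 99 in the paired fit with a replicate block, 35 with only the 4 arrays compared, 99 without the 3 arrays of high 3' to 5' ratio, and 0 to 120 when 1 array was left out (0 without either control array or overnight control array 1, 120 without overnight control array 2). Valpha2 against control had 33; it had 13 with quantile-normalized signals, 11 with medians made equal, 10 with a floor, 10 with no filter, 0 with no trend, 89 with the block, 57 with the 4 arrays, 76 without the 3 arrays, and 0 to 45 without 1 array (0 without either control array or Valpha2 array 1, 8 without Valpha2 array 2, 22 without Vbeta5 array 2). Valpha2 against overnight control had 0 calls, 0 to 1 without 1 array (1 without Valpha2 array 2) and 0 under each other alternative. Vbeta5 against the overnight control had 51 calls in all, 28 at a common median, 29 with the 4 arrays, 0 with no trend, 124 with the block, 206 without the 3 arrays and 0 without Vbeta5 array 2; Vbeta5 against Valpha2 had 23, 0, 0, 0, 90, 68 and 0. The block and the arrays share only a number; same-numbered arrays deviated together at r = 0.104 to 0.345 across probe sets. The common median shifted all probe sets by -0.226 in overnight control against control and -0.137 in Valpha2 against control.

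The 18 Vbeta5 differences of the members kept their sign under all 18 alternatives. The members were chosen for this rise, so the kept sign supports nothing. Crybg1 in overnight control against control passed with the replicate block (limma adjusted p = 0.0454) and without the 3 arrays (0.0335), and Lysmd2 without overnight control array 2 (0.0499); over all alternatives the adjusted p ranged from 0.0335 to 0.83 and from 0.0499 to 0.994. Small differences that had not passed changed sign. At a common median overnight control against control was -0.125 for Basp1 _s_at and -0.044 for Dipk2a. Without the 3 arrays Basp1 _r_at was -0.145 there and 0.65 in Valpha2 against overnight control, and Lysmd2 was 0.218 in Valpha2 against control. Leaving out 1 array gave, in overnight control against control, -1.49 to 0.40 for Ephx1, -0.24 to 0.44 for Basp1 _s_at and -0.145 to 0.70 for _r_at. In Valpha2 against control it gave -0.50 to 1.40 for Ephx1, -0.16 to 1.01 and -0.15 to 0.50 for Basp1, and -0.64 to 0.22 for Lysmd2. In Valpha2 against overnight control it gave -0.26 to 0.91 and -0.53 to 0.32 for Basp1 and -0.11 to 0.41 for Dipk2a. The cause of these moves was not tested.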

Other observations

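Marcksl1 and Prkch, chosen after their values were seen, belong to the list of Basp1 partners. Marcksl1, the closest relative of Marcks, read 1828.8 and 1289.9 in the control, 692.9 and 764.3 in the overnight control, 630.9 and 940.5 with Valpha2, and 1478.8 and 1618.1 with Vbeta5. Vbeta5 and control differed by 0.01 ± 0.26 (SE), and all 4 of their arrays stood above the 4 arrays of the overnight control and Valpha2. Vbeta5 exceeded the overnight control by 1.07 ± 0.26 (SE) without passing (limma adjusted p = 0.138). Prkch, a protein kinase C gene, read 97.0 and 103.2 in the control, 59.5 and 131.2 in the overnight control, 55.1 and 183.3 with Valpha2, and 367.6 and 719.7 with Vbeta5. Its difference from the overnight control was 2.32 (limma adjusted p = 0.103).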
